A study of Homo sapiens with 4 samples.

Results

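The epidermal connexins and aquaporins examined here are 7 genes chosen by name from the 44591 genes of the files: the connexins GJA1 (CX43), GJB2 (CX26), GJB5 (CX31.1) and GJB6 (CX30) and the aquaporins AQP3, AQP9 and AQP10. RNA-seq had been performed on 4 biological replicates of HaCaT, a spontaneously immortalized keratinocyte line from human skin, left untreated and grown in Dulbecco's medium with 12% fetal bovine serum according to the labels, while the methods of the study give another serum content. There is 1 group, without a control or a treated arm, so the question is at which level each gene is expressed in this line and how firmly the replicates fix that level. All replicates come from the same line, so they carry no information on other keratinocytes. Levels are given as TPM, here the reads of a gene per base of its length, scaled to 1000000 over the 19233 protein-coding genes of a replicate.

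Connexins are the subunits of gap junctions, the channels through which neighbouring cells pass ions and small metabolites. In epidermis several connexins are made together and their mix changes as keratinocytes leave the basal layer. GJA1 encodes the most widely expressed connexin of the body, GJB2 and GJB6 encode connexins whose mutations cause deafness and skin disease, and GJB5 encodes a connexin largely restricted to epithelia. Aquaporins are membrane channels for water. AQP3, AQP9 and AQP10 belong to the aquaglyceroporins, which also pass glycerol, and AQP3 is the main aquaporin of the basal epidermis, where the glycerol it carries takes part in keeping the skin hydrated. AQP9 is best known from liver and leukocytes, and AQP10 from the small intestine.

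The replicates differed in depth and in makeup. The total count was 17056035 to 19745170 in replicates 2 to 4 and 73082279 in replicate 1, and protein-coding genes took 95.3% to 96.4% of the counts in replicates 2 to 4 and 76.1% in replicate 1. With the other genes included, TPM over all genes would lower the median detected gene of replicate 1 by 1.56 on the log2 scale (by 0.10 to 0.18 in the others). TPM divides reads by gene length, so this shift need not match the share of counts. Replicate 1 is treated below as a library that stands apart, and the counts or TPM of each replicate are given for the 7 genes. Single levels of other genes are means over 4 replicates and can depend on replicate 1. All 7 markers of basal keratinocytes were detected, meaning a mean TPM above 1, and their summed TPM was 9110 to 14628. Their defining genes were high in each library, with KRT14 at 6375 to 7642 TPM and TP63 at 34.5 to 90.7 TPM. Of the markers of other cell types, 2 of 7 fibroblast, 2 of 5 melanocyte, 2 of 5 leukocyte, 0 of 4 endothelial and 0 of 4 liver genes were detected, with summed TPM of 5.20 to 9.70, 3.74 to 9.12, 11.4 to 52.0, 0.859 to 2.36 and 0.155 to 1.78. The leukocyte gene PTPRC was at 0 in replicates 2 to 4 and at 0.0166 TPM in replicate 1, and the melanocyte gene TYR was at 0 in all 4. The detected leukocyte genes were CD68, at 7.94 to 43.9 TPM, and CD14, at 3.03 to 8.92. The detected melanocyte genes were MITF, at 2.37 to 6.72 TPM, and PMEL, at 1.36 to 2.87.

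Promoters were at hand for 6 of the 7 genes, not for the detected gene GJB5, and came from RefSeq on GRCh38.p14. They span 300 bases, from 250 before to 50 after the annotated start. Those of 5 genes are shown 5′ to 3′ on the strand of the gene because the levels of the genes differ so much, with GJB2 and GJB6 as neighbours on chromosome 13 and AQP3 and AQP10 as aquaglyceroporins. Capitals mark CpG dinucleotides. They lie at chr13:20192889-20193188 (GJB2, minus strand), chr13:20230929-20231228 (GJB6, minus), chr9:33447544-33447843 (AQP3, minus), chr1:154320843-154321142 (AQP10, plus) and chr6:121435396-121435695 (GJA1, plus).
GJB2: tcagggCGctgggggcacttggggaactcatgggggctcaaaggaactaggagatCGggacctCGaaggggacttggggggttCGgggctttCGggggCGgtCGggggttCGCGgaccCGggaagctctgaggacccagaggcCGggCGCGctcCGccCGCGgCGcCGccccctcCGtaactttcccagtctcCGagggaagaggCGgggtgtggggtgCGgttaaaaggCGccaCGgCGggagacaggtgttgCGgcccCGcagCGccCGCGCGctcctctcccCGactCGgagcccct
GJB6: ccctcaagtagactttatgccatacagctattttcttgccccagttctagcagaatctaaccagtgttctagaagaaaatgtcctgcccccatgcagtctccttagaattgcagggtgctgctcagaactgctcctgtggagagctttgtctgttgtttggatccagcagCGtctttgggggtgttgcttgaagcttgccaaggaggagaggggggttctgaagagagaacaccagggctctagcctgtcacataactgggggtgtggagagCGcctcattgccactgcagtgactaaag
AQP3: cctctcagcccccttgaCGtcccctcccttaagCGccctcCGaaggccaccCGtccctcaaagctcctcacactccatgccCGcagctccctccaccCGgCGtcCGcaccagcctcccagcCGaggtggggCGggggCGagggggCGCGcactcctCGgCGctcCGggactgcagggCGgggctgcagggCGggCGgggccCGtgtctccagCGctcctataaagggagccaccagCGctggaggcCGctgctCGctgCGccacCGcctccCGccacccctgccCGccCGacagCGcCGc
AQP10: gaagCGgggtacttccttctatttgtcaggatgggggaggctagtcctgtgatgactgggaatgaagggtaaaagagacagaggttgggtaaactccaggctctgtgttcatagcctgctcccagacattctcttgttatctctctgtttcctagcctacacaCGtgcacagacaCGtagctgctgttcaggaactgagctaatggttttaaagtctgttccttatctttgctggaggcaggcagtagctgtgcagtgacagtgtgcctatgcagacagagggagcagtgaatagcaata
GJA1: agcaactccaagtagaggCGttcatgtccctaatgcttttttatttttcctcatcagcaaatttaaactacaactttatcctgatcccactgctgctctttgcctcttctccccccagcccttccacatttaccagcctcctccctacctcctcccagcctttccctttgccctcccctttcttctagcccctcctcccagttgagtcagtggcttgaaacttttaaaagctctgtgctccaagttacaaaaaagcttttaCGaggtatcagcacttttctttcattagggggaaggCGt

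The promoters of the detected genes GJB2 and AQP3 hold 33 and 31 CpG. Those of GJB6, AQP10 and AQP9, which were not detected, hold 2, 3 and 1 (6 at a further start of AQP9). GJA1, which was detected, holds 3 and lies on the other side of this divide. Across 13816 promoters of protein-coding genes with a mean TPM above 1 the median is 25 CpG and 82.6% hold 10 or more, and across 6718 promoters of the remaining protein-coding genes the median is 8 and 46.1% hold 10 or more. A CpG-rich start is thus the common form among genes detected in HaCaT, and GJA1 has the less common form. The promoters of the 6 genes, without GJB5, were searched on both strands for the TATA box (TATAAA), the GC box (GGGCGG) and the AP-1 site (TGANTCA). Of these genes AQP3 alone held a TATA box, 32 bases before the start. The GC box occurred 5 times in AQP3 and 3 times in GJB2, and the AP-1 site once, in GJA1, 48 bases before the start. These 3 motifs are found in 11.5%, 45.0% and 7.71% of all 35116 promoters of this length. A match of letters is a description and does not show that a factor binds there.

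The 7 genes fell into 4 that were detected and 3 that were not. AQP3, GJB5, GJB2 and GJA1 had mean TPM of 33.0 to 141, and AQP10, GJB6 and AQP9 had 0.0355 to 0.442. Of all 19233 protein-coding genes 63.3% were detected, against 4 of the 7 here. Above a mean of 0.1 TPM were 6 of the 7, against 74.4% of all protein-coding genes. The lowest detected gene, GJA1, stood above the highest of the other genes, AQP10, in 4 of 4 replicates, by 4.12 to 4.85 on the log2(TPM + 1) scale. This pair was picked as neighbours in mean level over these same replicates, which largely set the sign of its difference. The permutation test of this pair is therefore no separate evidence for the split into detected and other genes. The test used for a difference between 2 genes was an exact permutation of its signs over the replicates (two-sided), which with 4 replicates cannot go below p = 0.125, so none of the 12 pairs compared could pass 0.05, and this pair had the smallest p possible (0.167 after Benjamini-Hochberg adjustment over the 12 pairs).

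**Figure D1:**
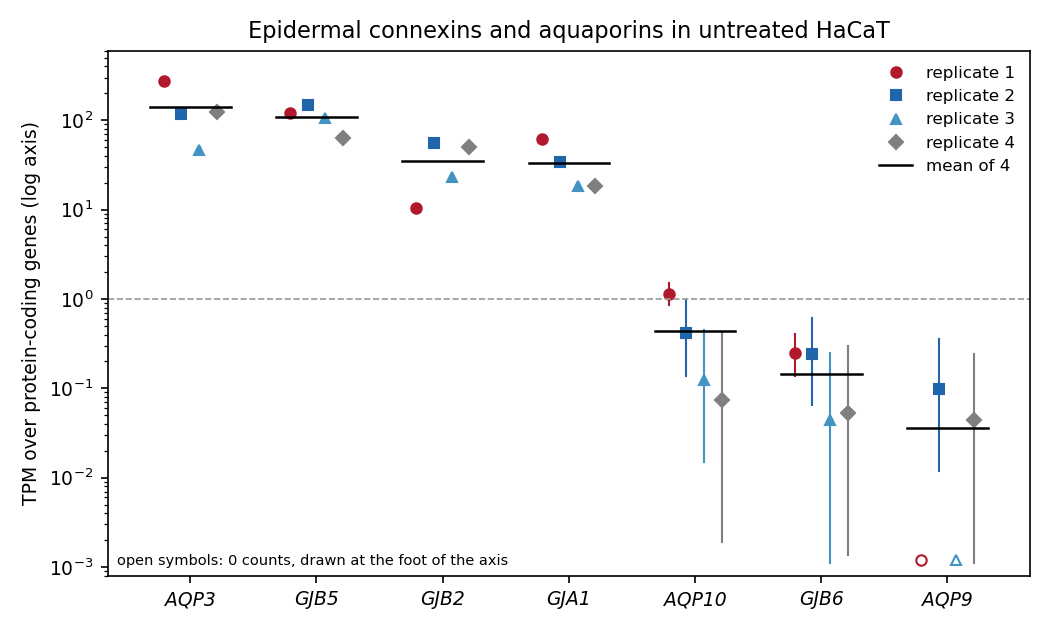
TPM over protein-coding genes (log axis) of the 7 genes in each of the 4 replicates, with the mean as a black line, 95% exact Poisson intervals of the counts as vertical lines and the detection limit of 1 TPM as a dashed line. AQP3, GJB5, GJB2 and GJA1 lie at 10.5 TPM or more in every replicate, while AQP10, GJB6 and AQP9 lie at 1.15 TPM or less (open symbols, a count of 0).

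GJB5 was the most abundant of the 4 connexins chosen. It lies on chromosome 1 from 35220648 to 35224113 on the plus strand (positions as in the files, for which the submitters' processing notes name hg19). Replicates 1 to 4 had 122, 147, 107 and 62.8 TPM, and the mean was 110 ± 35.4 (SD, n = 4). Replicate 4 was lowest and the other 3 lay closer together. Its mean level was at percentile 87.1 of the detected protein-coding genes, and its SD on the log2(TPM + 1) scale, 0.52, was near the median over these genes, 0.52, at percentile 50.4. That rank rested on replicate 1, without which the SD was 0.61, at percentile 84.9, against a median of 0.33. Without replicate 4 the SD was 0.23.

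GJB2 lies on the minus strand of chromosome 13 (20761602 to 20767114). Replicates 1 to 4 had 10.5, 55.0, 23.0 and 50.1 TPM of this gene, with a mean of 34.6 ± 21.4 (SD, n = 4) and of 42.7 ± 17.2 (SD, n = 3) without replicate 1. Replicate 1 was the lowest, below replicate 3 by 2.19-fold, although it was the deepest library and held 595 counts of the gene. GJA1 (chromosome 6, 121756723 to 121770890, plus strand) had 61.1, 34.0, 18.5 and 18.3 TPM, a mean of 33.0 ± 20.1 (SD, n = 4) and of 23.6 ± 9.03 (SD, n = 3) without replicate 1. Replicates 3 and 4 were nearly equal, and replicate 1 stood 1.80-fold above replicate 2. GJA1 has a processed pseudogene, GJA1P1, on which 0 to 5 reads were counted per replicate, against 432 to 4705 on GJA1.

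GJB2 and GJA1 had nearly the same mean level but did not keep one order. By reads per kilobase GJB2 was 1.62 times GJA1 in replicate 2 (95% Clopper-Pearson interval 1.46 to 1.79), 1.24 times in replicate 3 (1.10 to 1.41) and 2.74 times in replicate 4 (2.44 to 3.08). In replicate 1 the order was turned, with GJA1 at 5.82 times GJB2 (5.35 to 6.35). The intervals hold counting error alone, because no molecular identifiers were used and reads can be copies of one molecule. The difference on the log2(TPM + 1) scale, GJB2 minus GJA1, was -0.01 ± 1.68 (SD, n = 4; exact sign-flip permutation, p = 1.00), opposite in sign to the difference of the mean TPM, and it was 0.79 ± 0.56 (SD, n = 3) without replicate 1. The difference over all 4 replicates was thus smaller than its spread.

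GJB6 was close to absent from the reads. It had 15, 4, 1 and 1 counts, or 0.246, 0.240, 0.0444 and 0.0535 TPM across replicates 1 to 4, averaging 0.146 ± 0.112 (SD, n = 4), and the exact Poisson intervals of the 4 replicates overlapped. A count of 3, taken as the limit of detection, is 0.0492 TPM for this gene in replicate 1 and 0.133 to 0.180 TPM in the others, so only replicates 1 and 2 were above the limit. GJB6 lies 28.99 kb from GJB2 on the same strand of chromosome 13 (20796101 to 20806534). By reads per kilobase GJB2 stood 42.6 times above it in replicate 1 (95% Clopper-Pearson interval 25.6 to 76.6) and 229 times in replicate 2 (89.2 to 843). From the single count of GJB6 in replicates 3 and 4 the ratio was 518 (92.5 to 20499) and 936 (168 to 37009). The difference on the log2(TPM + 1) scale was 4.71 ± 1.11 (SD, n = 4) and GJB2 was higher in 4 of 4 replicates (p = 0.125 by exact sign-flip permutation).

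The connexin family puts these levels in context. Of 20 connexin genes in the files (GJE1 was not analysed here) 8 were detected, against 63.3% of all protein-coding genes. Without replicate 1 the mean was above 1 TPM for 9 connexins. The median of the family was 0.289 TPM, against 7.21 TPM over all protein-coding genes. Detected connexins besides the members included GJC1 (CX45) at 10.5 ± 4.38 and GJD3 at 5.67 ± 3.33 TPM (SD, n = 4), both below GJB5, GJB2 and GJA1 in mean level. GJC1 had 4.60 TPM in replicate 1 and 9.95 to 14.4 in the others, and GJD3 had 0.835 and 6.36 to 8.37. A total of 2 of the 20 connexin genes had no count in any replicate, as had 2739 of all 19233 protein-coding genes. A further 4 connexin genes never exceeded 3 counts.

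Shares of the summed connexin TPM do not depend on the other RNA of a library. GJB5 made up 42.6%, 27.1%, 27.1% and 21.1% of connexin RNA in replicates 1 to 4 (29.5% ± 9.22, SD, n = 4). GJA1 held 21.4% of it in replicate 1, more than its 4.71% to 6.25% in the other libraries. The share of GJB2 was 3.67% in replicate 1 and 5.85%, 10.1% and 16.8% in replicates 2 to 4. GJB6 never exceeded 0.0862%. The 4 connexins together held 67.8% of connexin RNA in replicate 1 and 37.7% to 44.1% in the others.

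GJB2 and GJB6 have GJA3 as a further neighbour. GJA3, GJB2 and GJB6 lie within 94.1 kb of chromosome 13, all on the minus strand, at 0.861, 34.6 and 0.146 TPM. GJB2 was the only one of these 3 that was detected over all 4 replicates. GJA3 missed the limit through replicate 1, with 0.0395 TPM there and 0.769 to 1.39 TPM in the others. Without replicate 1 its mean was 1.13 TPM. AQP3 lies 38.5 kb from AQP7 on chromosome 9, and AQP7, also an aquaglyceroporin, had 0.0566 TPM.

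**Figure D2:**
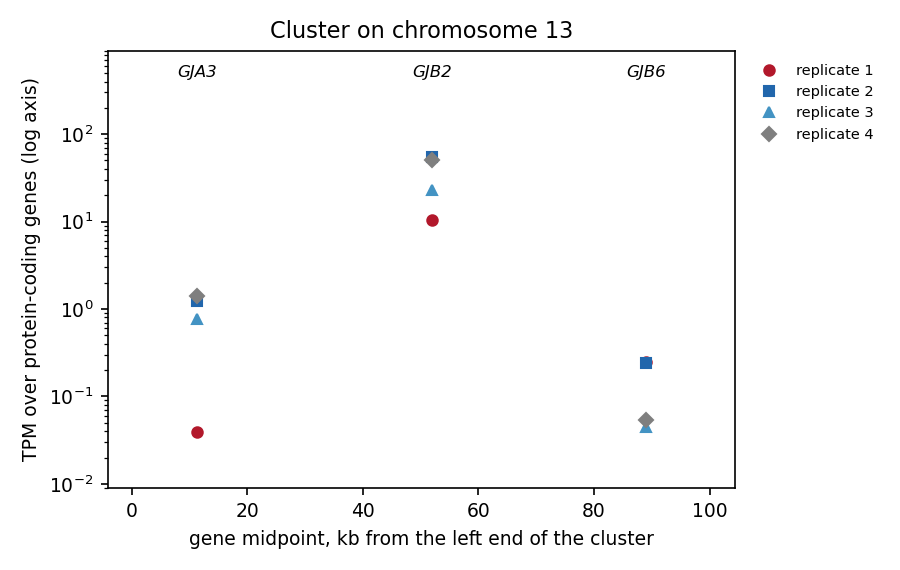
TPM over protein-coding genes (log axis) of GJA3, GJB2 and GJB6 on chromosome 13 in each replicate, against the distance of the gene's midpoint from the left end of the cluster (kb). GJB2 lies at 10.5 to 55.0 TPM, above GJA3 at 1.39 TPM or less and GJB6 at 0.246 TPM or less.

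AQP3 held nearly all aquaporin RNA of this line. It lies on chromosome 9 from 33441152 to 33447631 on the minus strand. Replicates 1 to 4 had 278, 117, 46.3 and 124 TPM, and the mean was 141 ± 97.8 (SD, n = 4) and of 95.9 ± 43.1 (SD, n = 3) without replicate 1. Replicate 1 was 2.24-fold above the next and replicate 3 was lowest, with replicates 2 and 4 close together. AQP3 made up 98.9%, 96.6%, 94.9% and 97.6% of the summed TPM of 14 aquaporin genes (97.0% ± 1.67, SD, n = 4). Its level varied 6.02-fold over the 4 replicates and 2.68-fold without replicate 1. The only further aquaporin that was detected was AQP11, a family member found inside cells, at 2.20 ± 0.678 TPM (SD, n = 4). Of the 14 aquaporin genes 2 were detected, against 63.3% of all protein-coding genes. A total of 5 aquaporin genes had no count in any replicate, against 2739 of all 19233 protein-coding genes. The median of the family was 0.0276 TPM, against 7.21 TPM over all protein-coding genes.

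AQP10 (chromosome 1, 154293592 to 154297801, plus strand) had 50, 5, 2 and 1 counts, or 1.15, 0.420, 0.124 and 0.0749 TPM in replicates 1 to 4. Replicate 1 was the highest, and its exact Poisson interval of 0.853 to 1.51 TPM overlapped that of replicate 2 (0.136 to 0.980) but not those of replicates 3 and 4, which ended at 0.449 and 0.418. In TPM over all genes replicate 2 was the highest instead, at 0.372 against 0.356 in replicate 1. The mean was 0.442 ± 0.495 (SD, n = 4), and 0.206 without replicate 1. In replicates 3 and 4 the counts were below the limit of 3. AQP3 was 242 times (184 to 327) above AQP10 per kilobase in replicate 1 and 279 times (119 to 860) in replicate 2 (95% Clopper-Pearson intervals). Their log2(TPM + 1) difference was 6.41 ± 0.73 (SD, n = 4), and AQP3 was higher in 4 of 4 replicates (exact sign-flip permutation test, p = 0.125). AQP10 was above GJB6 in 4 of 4 replicates, by 0.28 ± 0.34 (SD, n = 4) on this scale (exact sign-flip permutation test, p = 0.125). Per kilobase it was 4.67 times GJB6 in replicate 1 (2.58 to 8.95), from 50 and 15 counts. In replicates 2 to 4 the intervals included equal levels, so the counts there were too few to rank these genes.

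AQP9 (chromosome 15, 58430368 to 58478110, plus strand) had 0, 2, 0 and 1 counts, 3 in all over the 4 replicates. It was not detectable at this depth, and a count of 3 would stand for 0.0403 TPM in replicate 1 and for 0.109 to 0.147 TPM in the others. In replicate 1, where AQP9 had no count, AQP3 was 6900-fold higher per kilobase than AQP9 would be at 3 counts. In replicate 3, also without a count of AQP9, it was 424-fold higher on the same basis. In replicate 2 the ratio of AQP3 to AQP9 as counted was 1192, with a 95% Clopper-Pearson interval of 329 to 9851.

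AQP3 and GJB5, the highest aquaporin and the highest of the 4 connexins, could not be put in order. Per kilobase AQP3 was 2.29 times GJB5 in replicate 1 (95% Clopper-Pearson interval 2.21 to 2.37) and 1.98 times in replicate 4 (1.80 to 2.17), but 0.795 times in replicate 2 (0.738 to 0.857) and 0.434 times in replicate 3 (0.397 to 0.475). The log2 difference was 0.16 ± 1.12 (SD, n = 4; exact sign-flip permutation test, p = 1.00). Without replicate 1 it was -0.18 ± 1.09 (SD, n = 3), and GJB5 then had the higher mean, 106 against 95.9 TPM. GJB5 was above GJB2 in 4 of 4 replicates, from 1.25 times per kilobase (1.13 to 1.39) in replicate 4 to 11.6 times (10.6 to 12.7) in replicate 1 (log2 difference 1.83 ± 1.30, SD, n = 4; exact sign-flip permutation test, p = 0.125). The order of levels was thus AQP3 and GJB5, which were not separated, then GJB2 and GJA1, also not separated, and then the 3 genes that were not detected.

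**Figure D3:**
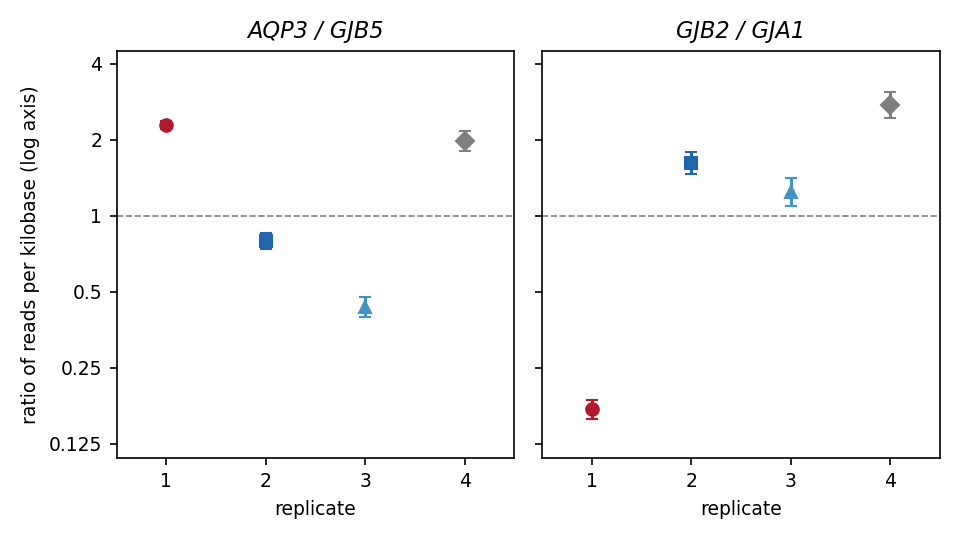
Ratio of reads per kilobase (log axis) for AQP3 over GJB5 and GJB2 over GJA1 in each replicate, with 95% Clopper-Pearson intervals and a dashed line at equal levels. AQP3 lies above GJB5 in replicates 1 and 4 and below it in replicates 2 and 3, and GJB2 lies below GJA1 in replicate 1 and above it in replicates 2 to 4.

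The 4 detected genes varied between replicates in different ways. AQP3 and GJA1 were highest in replicate 1, by over 1.5 times the next replicate, as were 21.1% of 12165 detected protein-coding genes. GJB2 was lowest in replicate 1, by over 1.5 times, as were 23.5%. By any margin, 2 of the 4 members were highest in replicate 1 (40.2% of detected genes) and 1 was lowest there (37.5%). GJB5 and GJB2 were highest in replicate 2 (23.3%), none in replicate 3 (13.3%) or replicate 4 (23.3%). AQP3 was lowest in replicate 3 (40.2%), GJB5 and GJA1 in replicate 4 (12.9%), and none in replicate 2 (9.47%). In TPM over all genes, which carries the other RNA of replicate 1, the highest value of AQP3 was in replicate 4 and that of GJA1 in replicate 2, and GJB5 was lowest in replicate 1, while GJB2 was still lowest there. On the log2(TPM + 1) scale the SD was 1.07 for GJB2, 1.05 for AQP3 and 0.80 for GJA1 (percentiles 88.4, 88.0 and 77.2 of the detected genes). Without replicate 1 these SDs were 0.67, 0.79 and 0.49, at percentiles 88.7, 93.6 and 73.9, so the high rank of GJB2 and AQP3 did not rest on that library.

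**Figure D4:**
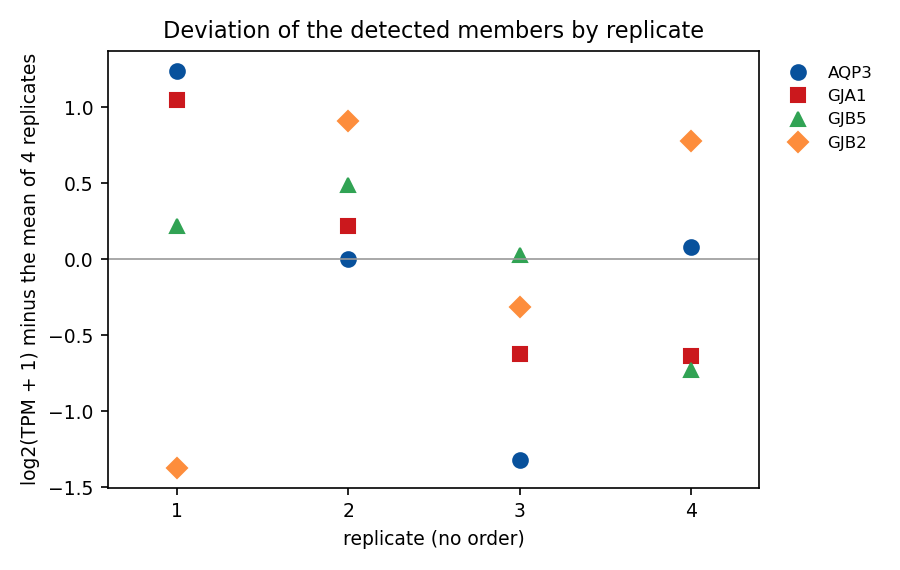
Deviation of log2(TPM + 1) from its mean over 4 replicates for AQP3, GJA1, GJB5 and GJB2, 1 point per replicate. In replicate 1 AQP3 (1.24) and GJA1 (1.05) lie above the mean and GJB2 (-1.37) below it in TPM over protein-coding genes, and AQP3 reaches -1.32 in replicate 3 (in TPM over all genes, not plotted, AQP3 and GJA1 are not highest in replicate 1).

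Other values moved along with replicate 1. Of the 6 markers of differentiating keratinocytes 4 were highest in replicate 1, against 40.2% of all detected protein-coding genes. The list summed to 658 TPM in replicate 1 and to 74.99 to 112 TPM in the others. Among them KRT1, a suprabasal keratin, was at 124 TPM against 0.219 to 0.545, and IVL, which encodes a protein of the cornified envelope, at 202 TPM against 4.06 to 14.9. LOR, also of the cornified envelope, had 0.234, 0, 0 and 0.328 TPM in replicates 1 to 4 and was not detected. FLG (filaggrin) was detected and was not highest in replicate 1, at 6.36, 14.3, 3.25 and 7.77 TPM. Markers of basal keratinocytes moved with replicate 1 as well, with 5 of 7 highest and 1 lowest there. They summed to 14628 TPM in replicate 1 and to 9110 to 11806 TPM in the others. The part of differentiating cells in the values of AQP3, AQP10, GJA1 and GJB2 was not tested, and in bulk RNA more such cells and more RNA per cell cannot be told apart. Genes with a low GC content were higher in replicate 1 (Spearman correlation of the deviation with GC content across 11889 genes, -0.51). GJA1 has 40.6% GC in its longest coding transcript, GJB2 45.9%, AQP3 56.6% and GJB5 56.8%. With each replicate centred within bins of GC content, the log2 difference of replicate 1 from the mean of the others went from 1.39 to 0.74 for GJA1, from 1.65 to 2.34 for AQP3, from 0.29 to 0.97 for GJB5 and from -1.83 to -1.96 for GJB2. The differences of AQP3, GJB2 and GJB5 were thus at least as large within their GC bins, and that of GJA1 was smaller.

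Genes whose values followed the members most closely over the 4 replicates were found by the root mean square distance of centred log2(TPM + 1) values. For AQP3 they were USP47 (distance 0.01), ZNF267 (0.04) and PLCD1 (0.04). For GJB2 they were MLXIP (0.04), SPDYE2 (0.06) and ELK3 (0.06), for GJA1 PARD6B (0.06), ZNF347 (0.07) and ZNF251 (0.09), and for GJB5 MAGOHB (0.09), RPP14 (0.10) and STAT2 (0.10). Within a distance of 0.1 there were 37 of 12164 genes for AQP3, 12 for GJB2, 4 for GJA1 and 2 for GJB5. Only 4 replicates stand behind each distance. Some of the genes named were near the detection limit. SPDYE2 was at 0 TPM in replicate 1, where GJB2 had 10.5, and its mean was 2.01 TPM. ZNF347 had a mean of 1.45 TPM. At such levels the pseudocount of 1 damps differences, so a small distance there does not mean equal fold changes. Distances between the members themselves ran from 0.52 for GJA1 and AQP3 to 1.51 for GJB2 and AQP3. The genes named above were picked as the nearest of 12164, so their smaller distances were set by that choice.

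Genes that work with the channels were mostly expressed. All 14 gap junction partners in the files were detected, against 63.3% of all protein-coding genes, with a median of 100 TPM. High among them were TUBB, a tubulin, at 1150 TPM (555 in replicate 1 and 1263 to 1491 in the others) and CAV1 (caveolin) at 539. EZR (ezrin) was at 500, MAPRE1, which binds microtubule ends, at 175 and CTNNB1 (β-catenin) at 155. TJP1, the scaffold that binds the tail of the GJA1 protein, had 53.0 TPM. Of the 3 pannexins, which form channels of their own and are related to connexins in shape, PANX1 had 74.2 ± 7.35 TPM (SD, n = 4). PANX2 had 0.557 TPM in replicate 1 and 13.1 to 32.4 TPM in the others, and PANX3 had no count.

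Of 13 genes of water and glycerol handling 11 were detected, against 63.3% of all protein-coding genes, with a median of 38.2 TPM. High among them were SLC9A3R1, a membrane scaffold, at 214 TPM, SLC2A1, the glucose transporter, at 97.7, HAS3, a hyaluronan synthase, at 64.5 (2.28 in replicate 1 and 142, 56.1 and 57.4 in replicates 2 to 4), the glycerol phosphate dehydrogenase GPD2 at 45.1 and the phospholipase D gene PLD2, whose product uses glycerol, at 40.6. The 2 that were not detected were GPD1, with 2 to 7 counts in a replicate, and GK, which encodes glycerol kinase, with 0, 0, 2 and 9 counts. GK has near-identical copies elsewhere in the genome with which reads may have been shared, so its level is uncertain.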

How the data were processed

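RNA was extracted with Trizol and libraries were made with standard Illumina protocols, per the labels. The authors deposited raw counts per gene with a gene length, and beside them RPKM for replicates 1 and 2 and TPM for replicates 3 and 4. HISAT2, TopHat2, Bowtie2, HISAT and hg19 are listed in the submitters' processing notes, and the counter and its use of strand are not given in the sources used here. TPM was recomputed for all 4 replicates from deposited counts and lengths over protein-coding genes. The 7 genes, the lists and the tests were chosen with earlier results of these data known. Named besides the 7 are family genes with a mean TPM above 1, up to 6 genes of each partner list and the 3 nearest genes per detected member. Some genes under this rule, and the 2 of the 12 pairs that hold them, are not reported here. TJP1, and neighbours below this level, were named after their values were seen.

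The pseudocount was 1. Pairs of genes were compared within replicates by two-sided exact sign-flip permutation tests, and counts by 95% Clopper-Pearson and exact Poisson intervals. The pairs were neighbours in the order of mean level in these same replicates, and further pairs set by name. The study calls the replicates biological, but the labels do not say that they came from separate cultures, so p-values measure only the spread between these samples, which may be technical. GC content and union exon lengths came from GENCODE release 29 (GRCh38), found for 97.7% of detected genes in the case of GC. Ranking and distances were tried on simulated counts, drawn around a common mean per gene with changes planted in replicate 1 alone. The simulation had a preset noise and no GC trend, so it cannot show how well they work on these data. Alternatives were TPM over all genes, other scalings, pseudocounts, lengths and detection limits, and leaving out each replicate. Bins of GC content and TPM over all genes for the spread were added after seeing the data. Scripts ran under Python 3.11.15 with SciPy 1.17.1 for the tests, pandas 2.3.3 and NumPy 2.4.6 for tables, and matplotlib 3.10.9 for plots.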

Additional observations from a re-analysis of the deposited data

Results flagged for a closer look

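In 24 sets of 4 values, 1 had a replicate past the 95% critical value of Dixon's test, and chance alone flags about 1 in 20 sets. The sets share genes and are not independent. The share of GJA1 in connexin RNA was 21.4% in replicate 1, against 4.71% to 6.25% in the others.

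Reads were also counted on a gene outside the protein-coding set that bears on GJA1. The pseudogene GJA1P1 had 5 counts in replicate 1.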

How the results depend on the processing

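Over 326 values under alternative settings for 41 results, 297 stayed on the same side or within the spread, 24 moved and 5 turned in direction. The differences that turned were those of neighbours in the order. AQP3 minus GJB5 was -0.49 with the union of annotated exons as length and ranged from -0.18 to 0.61 when 1 replicate was left out, below 0 without replicate 1 (-0.18) or replicate 4 (-0.11). GJB2 minus GJA1 was 0.036 in TPM over all genes and ranged from -0.49 to 0.79 when 1 replicate was left out, above 0 without replicate 1. With union exon lengths the mean level was 55.0 TPM for GJA1, 58.6 for GJB2 and 199 for GJB5. In read counts without length correction GJB5 held 17.4% of the connexin family and stood at percentile 68.5. With any count taken as detected, 7 members, 18 of 20 connexins and 9 of 14 aquaporins were called. Of all 19233 protein-coding genes 2739 had no count. Above 0.1 TPM were 13 connexins and 4 aquaporins, against 74.4% of all protein-coding genes. The log2 SD with a pseudocount of 0.1 was 0.70 for GJB6, 0.48 for AQP9 and 1.29 for AQP10. In TPM over all genes it was 0.39 for GJA1, 1.66 for GJB2, 0.67 for AQP3 and 0.19 for AQP10, and within GC bins 0.53 for GJA1. Leaving out 1 replicate, it ranged from 0.49 to 0.97 for GJA1, 0.67 to 1.28 for GJB2, 0.23 to 0.64 for GJB5, 0.69 to 1.28 for AQP3, 0.036 to 0.078 for AQP9 and 0.22 to 0.56 for AQP10. Except where the setting itself changes the length or total, the cause was not tested. Means of the deposited values were not formed, as their units differ, and the shares of GJB6, AQP9 and AQP10 could not be formed over genes above 3 counts. No paired analysis was possible between groups because there is a single group, while genes were compared within replicates throughout. Depth limits GJB6, AQP9 and AQP10, with 21, 3 and 58 counts over the 4 replicates.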
